A study of Mus musculus with 6 samples.

Results

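The matrix metalloproteinases (MMPs) and the tissue inhibitors of metalloproteinases (TIMPs) are described here through 10 genes of a mouse heart RNA-seq table: Mmp2, Mmp3, Mmp12, Mmp14, Mmp15, Mmp19, Timp1, Timp2, Timp3 and Timp4. They were chosen by gene symbol, with earlier results of these data known. All 10 were found among the 22298 genes of the table. The hearts came from female mice of 18 months with the genotype WT. In 1 group of 3 samples the mice had sham surgery, and in the other group of 3 they had TAC surgery, in heart research the usual name for a band tied around the transverse aorta, against which the left ventricle must pump. Age, sex and genotype are shared by both groups, and no further allele or agent is labelled. How long after surgery the hearts were taken is not stated in the sources used here. The labels number the hearts 1, 2 and 3 within each group, so the spread behind the p-values is that between hearts.

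MMPs are zinc-dependent proteases that are made as inactive proenzymes and, once activated, cut collagens, elastin, laminins, proteoglycans and many cell-surface proteins. Some are secreted and others, the membrane-type MMPs, stay anchored at the cell surface. TIMPs are small secreted proteins that bind the active site of MMPs and block it. In the heart, fibroblasts, vascular cells, muscle cells and leukocytes contribute members of both families, which are known for their part in remodelling the matrix of the loaded ventricle.

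The 6 libraries held between 19747265 and 27549838 estimated counts. The first principal component of log2 CPM, where CPM is the count per library total after TMM scaling, held 54.6% of the variance. It placed TAC replicate 1 at 0.65, between the sham libraries (at most -31.4) and TAC replicates 2 and 3 (48.9 and 53.5). Fold changes of the 10 genes that depend on this library or on TAC replicate 3 are given with and without it. The summed level of 8 cardiomyocyte markers was 58985 to 61032 CPM in sham and 40058 to 59496 CPM in TAC, so the labelled tissue carried its defining RNAs in every library.

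Stretches at the start of 3 of the genes are shown. These genes were picked because they had the highest fold changes of the set and hold letters of an AP-1 site or its variant. AP-1 is the Fos and Jun dimer known to drive inducible MMP and TIMP genes. The RefSeq promoter table (GRCm38.p6) held 9 windows for 8 of the genes, with Mmp12 at 2 start sites and no entry for Mmp2 and Mmp19. Each window runs from 250 bases before to 50 bases after an annotated start. Capitals mark TGAGTCA, the letters of the AP-1 site, and TATAAA, the letters of a TATA box, wherever they stand. The first line lies at chr9:7445572-7445821 and the second at chr9:7347124-7347373, both on the plus strand and ending just before the annotated start (for Mmp12, its second start).
Mmp3: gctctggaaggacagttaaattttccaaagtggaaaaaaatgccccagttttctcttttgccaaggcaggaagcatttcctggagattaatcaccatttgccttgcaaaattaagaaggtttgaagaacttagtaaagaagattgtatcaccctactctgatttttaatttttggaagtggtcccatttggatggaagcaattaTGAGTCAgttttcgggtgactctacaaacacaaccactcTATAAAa
Mmp12: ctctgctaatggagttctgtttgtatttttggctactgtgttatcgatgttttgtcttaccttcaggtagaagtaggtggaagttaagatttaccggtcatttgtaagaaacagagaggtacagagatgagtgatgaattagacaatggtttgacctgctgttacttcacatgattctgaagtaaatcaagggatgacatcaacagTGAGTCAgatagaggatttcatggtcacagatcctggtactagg
Timp1: gtgggtggaTGAGTAAtgcgtccag

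In Mmp3 the AP-1 letters begin 46 bases before the start, and in the second window of Mmp12 they begin 44 bases before it. No other window of the set held TGAGTCA on either strand, and 5.20% of all 32851 windows of the same length did. The TATAAA of Mmp3 begins 7 bases before the start, and that of Mmp12 begins at base 5 after the second start, outside the stretch printed. On the gene strand, 8.32% of all windows held these letters. The Timp1 line is 25 bases at chrX:20870183-20870207, on the plus strand, with the variant site TGAGTAA at bases 27 to 33 after the start. That variant stood in 2.68% of all windows, on either strand. It does not overlap an AP-1 or TATA match. These are matches of letters, and binding was not measured. The 3 genes were picked for both fold change and letters, so a link between site and fold change was not tested.

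In TAC hearts Mmp3 RNA was higher, and none of the other 9 genes passed the test in either direction. Of the 10, 1 was called higher and 0 were called lower (edgeR quasi-likelihood test, adjusted p under 0.05 over 13708 genes). Over all genes, 1.12% were called higher and 0.54% lower. At an unadjusted p under 0.05, 4 of the set were higher (Timp1, Mmp3, Mmp12 and Mmp19) and 3 lower (Mmp15, Mmp2 and Timp4), against 16.3% and 9.26% of all genes. With the Wald test of DESeq2, 3 were higher (Mmp3, Mmp12 and Mmp19) and 2 lower (Mmp2 and Mmp15). Over all genes this test called 7.28% higher and 4.08% lower. It gave Timp1 a log2 fold change of 3.45 but no p-value, unadjusted or adjusted. At an adjusted p under 0.10 with edgeR, 4 were higher and 1 lower, against 8.25% and 3.49% of all genes. With library weights in limma-voom, 4 were also higher and 1 lower, against 10.1% and 5.22%. All 10 passed the filter on low counts. The sham and TAC libraries did not overlap in 6 of the 10 genes, as in 31.5% of all tested genes. These were 4 higher genes (18.4% of all) and 2 lower genes (13.1% of all). The median log2 fold change was 0.24 over the 10 and 0.03 over all tested genes. As the genes were chosen with earlier results of these data known, the shares over all genes are given for scale only.

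**Figure D1:**
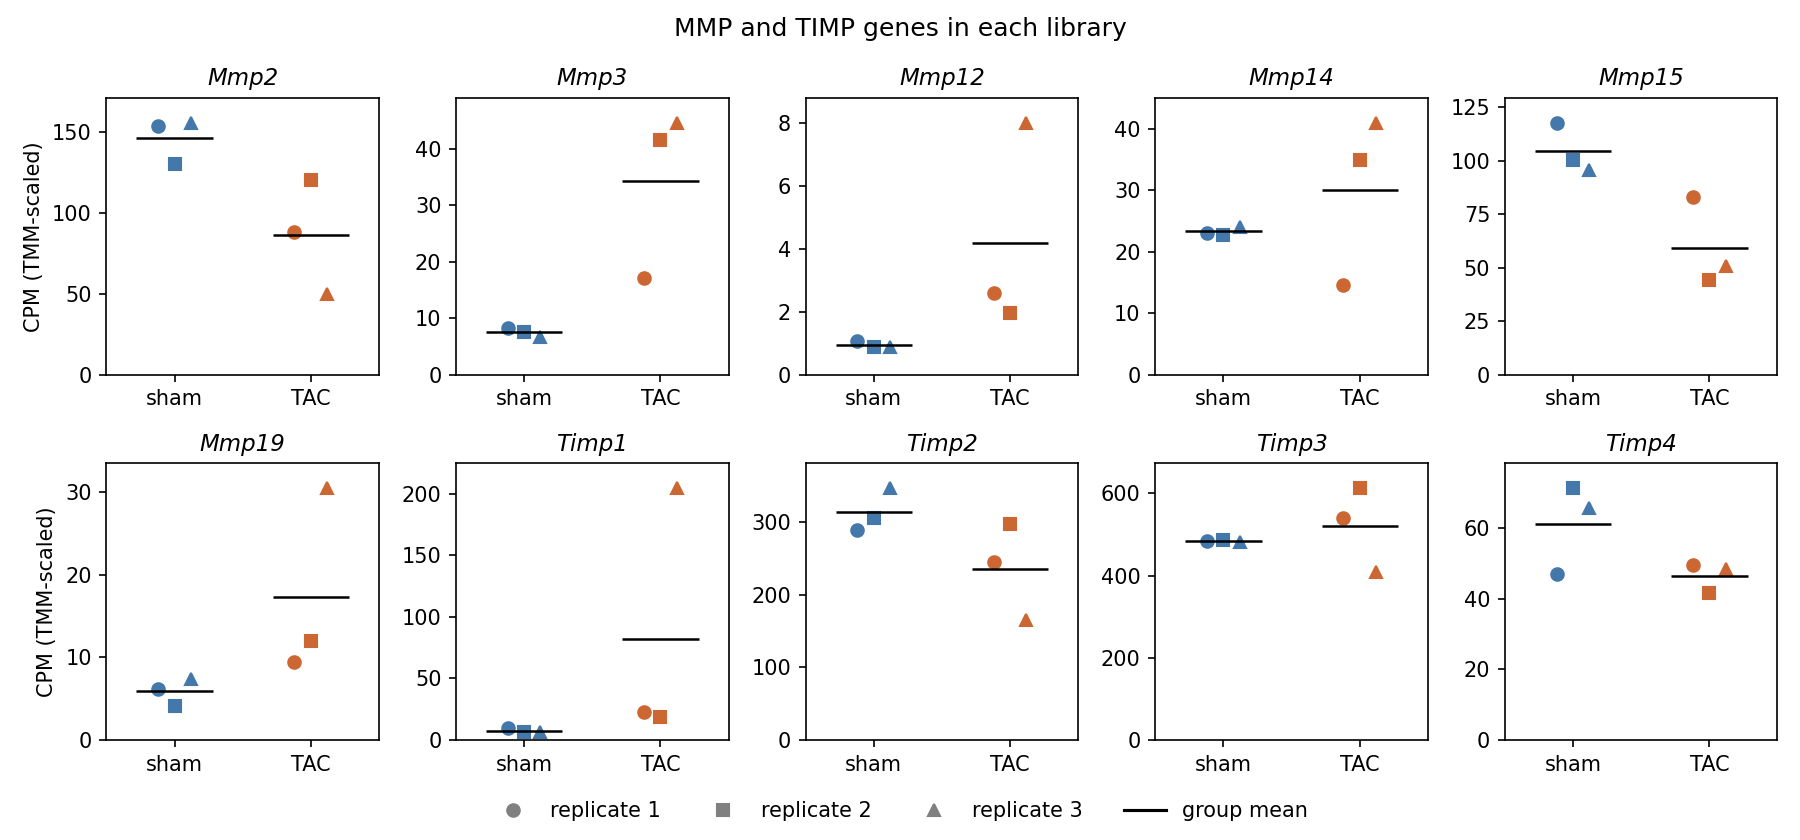
CPM on TMM-scaled library sizes (y axis, from 0, a separate scale per gene) in the 3 sham and 3 TAC libraries, with a symbol per replicate and a line at the group mean. Mmp3, Mmp12, Mmp19 and Timp1 are higher in every TAC library than in every sham library, Mmp2 and Mmp15 lower in every one, and Timp1 in TAC replicate 3 stands at 205 CPM.

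Mmp3 encodes stromelysin-1, a secreted protease that cuts proteoglycans, laminin and fibronectin and activates other MMPs (ENSMUSG00000043613, chromosome 9, 7445822 to 7455975 in GRCm38, plus strand). The sham libraries held 162, 203 and 145 estimated counts of it, and TAC replicates 1, 2 and 3 held 420, 956 and 1047. In FPKM, the level per length, it stood at 4.56, 4.09 and 3.82 in sham and 9.04, 22.7 and 26.2 in TAC. All TAC libraries lay above all sham libraries, TAC replicate 1 by the least. Mmp3 rose 4.59-fold, from 7.49 ± 0.809 to 34.4 ± 15.04 CPM (SD over the 3 libraries of a group), which edgeR fitted as a log2 fold change of 2.20 with an SE of 0.34 and an adjusted p = 0.0279. The call was lost without sham replicate 1, 2 or 3 (adjusted p = 0.131, 0.182 and 0.190), without TAC replicate 2 (0.0986) and without TAC replicate 3 (0.0506), while the log2 fold change stayed between 1.96 and 2.51 in the 6 fits that leave out 1 library. With limma-voom it was also lost (adjusted p = 0.0562).

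Mmp12 encodes macrophage elastase, a secreted protease of elastin (ENSMUSG00000049723, chromosome 9, 7344381 to 7369499, plus strand). Its estimated counts were low, 21, 24 and 19 in sham and 64, 45 and 188 in TAC replicates 1, 2 and 3. The FPKM values were 0.67, 0.55 and 0.54 in sham and 1.59, 1.34 and 5.70 in TAC. Every TAC library was above every sham library, and TAC replicate 3 was far above the other two. The log2 fold change of 2.14 (SE 0.54) did not pass (edgeR adjusted p = 0.0733). It passed when TAC replicate 1 was left out (2.37, adjusted p = 0.0266). Leaving out TAC replicate 3 lowered it to 1.25 (adjusted p = 0.104).

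Mmp19 encodes a secreted MMP of basement membrane and other matrix proteins (ENSMUSG00000025355, chromosome 10, 128790910 to 128800824, plus strand). In FPKM it was at 2.41, 1.46 and 2.59 in sham and at 2.84, 3.92 and 10.3 in TAC replicates 1, 2 and 3. TAC replicate 1 was just above the highest sham library and TAC replicate 3 was the highest by a wide margin. With all libraries the fitted log2 fold change of 1.55, with an SE of 0.44, did not pass (edgeR adjusted p = 0.0867). It was 1.83 with TAC replicate 1 left out (adjusted p = 0.0214) and 0.85 with TAC replicate 3 left out (adjusted p = 0.133). It was the only gene of the set with fractional estimated counts, 113 to 160 in sham and 231 to 717 in TAC. Tmem198b overlaps it on the other strand, with 9.35 CPM on average in sham and 10.7 in TAC, and the sources used here do not say whether reads of the pair were told apart.

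Mmp2 encodes gelatinase A, which is made as a proenzyme that the Mmp14 product activates at the cell surface with the help of TIMP2 (ENSMUSG00000031740, chromosome 8, 92827291 to 92853420, plus strand). It was the most abundant MMP of the set in sham, at 49.3, 42.5 and 52.5 FPKM, and stood at 28.1, 39.9 and 17.5 FPKM in TAC replicates 1, 2 and 3. The groups did not overlap, although TAC replicate 2 came close to the lowest sham library. The estimated counts ran from 2991 to 3537 in sham and from 1176 to 2769 in TAC. The log2 fold change was -0.77 (SE 0.28) and did not pass with edgeR (adjusted p = 0.138), while DESeq2's Wald test called it (-0.79, adjusted p = 0.0420). With edgeR it was -0.50 with TAC replicate 3 left out (adjusted p = 0.147) and -1.11 with TAC replicate 2 left out (adjusted p = 0.134).

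Mmp14 encodes MT1-MMP, a membrane-anchored collagenase (ENSMUSG00000000957, chromosome 14, 54431612 to 54445364, plus strand). It was steady in sham, at 8.88, 8.65 and 9.50 FPKM, and spread to both sides in TAC, at 5.33, 13.5 and 16.8 FPKM in replicates 1, 2 and 3. TAC replicate 1 was below all sham libraries and the other two were above them. Over all libraries edgeR gave a log2 fold change of 0.37, an SE of 0.32 and an adjusted p = 0.500. It was 0.68 and passed when TAC replicate 1 was left out (adjusted p = 0.00980), and 0.072 when TAC replicate 3 was left out (adjusted p = 0.915).

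Mmp15 encodes MT2-MMP, another membrane-anchored member (ENSMUSG00000031790, chromosome 8, 95352268 to 95375080, plus strand). It was at 22.6, 19.3 and 19.2 FPKM in sham and at 15.4, 8.49 and 10.5 FPKM in TAC replicates 1, 2 and 3. Estimated counts were 2292, 2735 and 2075 in sham and 2035, 1018 and 1199 in TAC. All TAC libraries lay below all sham libraries, TAC replicate 1 by the least. The mean level was 105 ± 11.5 CPM in sham and 59.3 ± 20.6 in TAC (SD over the 3 libraries of a group). The log2 fold change of -0.82, with an SE of 0.23, did not pass (edgeR adjusted p = 0.0841). It was -1.15 and passed when TAC replicate 1 was left out (adjusted p = 0.00435). In that fit 5 genes of the set were higher (Timp1, Mmp3, Mmp12, Mmp19 and Mmp14) and 1 was lower, and over all genes 13.2% were called higher and 10% lower.

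**Figure D2:**
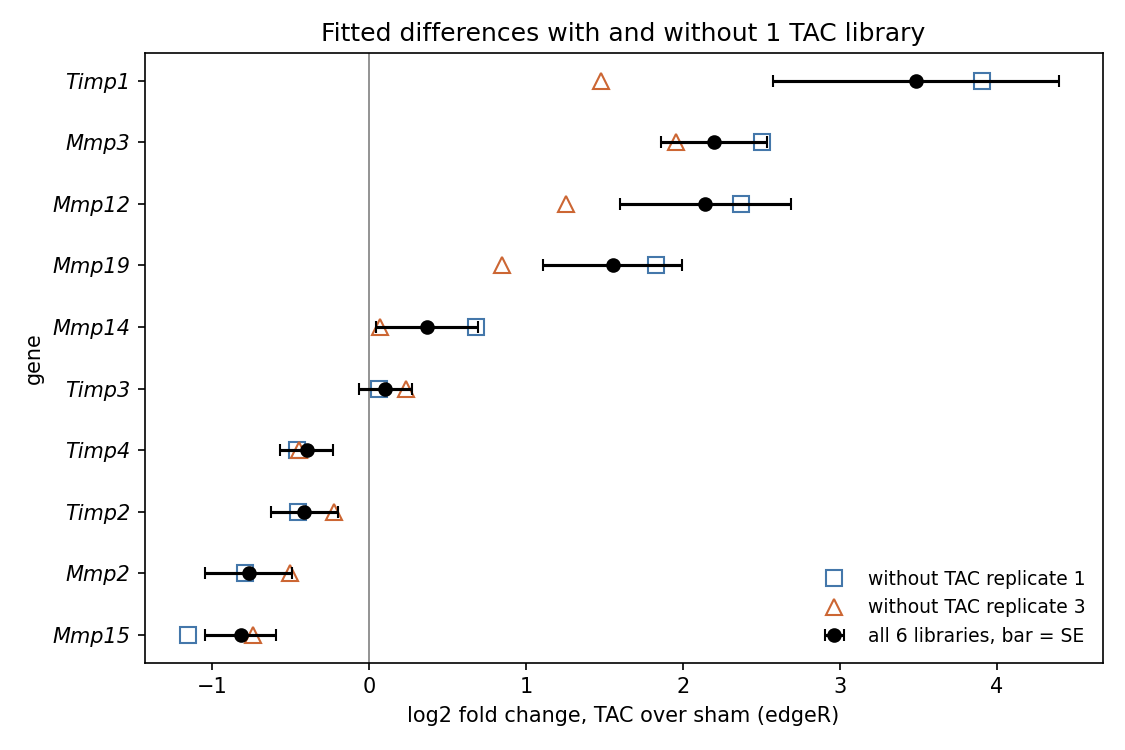
Fitted log2 fold changes of TAC over sham (x axis, edgeR) for the 10 genes, with the SE as a bar for all 6 libraries and open symbols for the fits without TAC replicate 1 or 3. Timp1 moves from 3.48 to 1.48 without TAC replicate 3, Mmp3 stays between 1.96 and 2.51, and Mmp14 moves to 0.68 or 0.072.

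Timp1 encodes an inducible inhibitor of secreted MMPs that is low in the resting heart (ENSMUSG00000001131, chromosome X, 20870166 to 20874735, plus strand). Its estimated counts were 188, 172 and 131 in sham and 549, 436 and 4810 in TAC replicates 1, 2 and 3. In FPKM it was at 10.9, 7.30 and 7.20 in sham and at 24.7, 21.8 and 253 in TAC. Every TAC library was above every sham library, and TAC replicate 3 was above the other two TAC libraries by far more than these differed from sham. The mean level was 7.34 ± 2.002 CPM in sham and 82.0 ± 106 in TAC (SD over the 3 libraries of a group). The log2 fold change of 3.48 (SE 0.91), the highest of the 10, did not pass (edgeR adjusted p = 0.0769). It passed without TAC replicate 3, at a lower log2 fold change of 1.48 (adjusted p = 0.0321; 0.59% of all genes were called higher in that fit), and without TAC replicate 1, at 3.90 (adjusted p = 0.0213).

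Timp2 encodes the inhibitor that also links pro-MMP2 to MT1-MMP (ENSMUSG00000017466, chromosome 11, 118301069 to 118355740, minus strand). It was at 77.2, 82.4 and 96.1 FPKM in sham and at 62.9, 79.9 and 47.2 FPKM in TAC replicates 1, 2 and 3. TAC replicate 2 lay within the sham range, and TAC replicate 3 was the lowest. Its log2 fold change of -0.41, with an SE of 0.21, did not pass (edgeR adjusted p = 0.259). It was -0.23 with TAC replicate 3 left out (adjusted p = 0.393) and -0.65 with TAC replicate 2 left out (adjusted p = 0.183).

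Timp3 encodes the TIMP that binds to the matrix and also blocks ADAM17 and ADAMTS proteases (ENSMUSG00000020044, chromosome 10, 86300372 to 86349506, plus strand). It was very even in sham, at 101, 102 and 105 FPKM, and at 109, 128 and 91.6 FPKM in TAC replicates 1, 2 and 3. The TAC libraries lay on both sides of the sham libraries. The fitted log2 fold change was 0.10 with an SE of 0.17 (edgeR adjusted p = 0.725), and 2 SE on each side span -0.23 to 0.44. Its sign turned without TAC replicate 2 (-0.058, adjusted p = 0.857), and it was 0.065 without TAC replicate 1 and 0.24 without TAC replicate 3 (adjusted p = 0.824 and 0.278).

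Timp4 encodes a TIMP known for its high level in the heart (ENSMUSG00000030317, chromosome 6, 115241892 to 115252205, minus strand). It varied more in sham, at 13.9, 24.1 and 21.0 FPKM, than in TAC, at 15.8, 14.4 and 17.4 FPKM in replicates 1, 2 and 3. In FPKM, sham replicate 1 was lower than all TAC libraries, and the other 2 sham libraries were above them. The fitted log2 fold change, -0.40 with an SE of 0.17, did not pass (edgeR adjusted p = 0.184).

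Timp1, Timp3 and Timp4 each lie inside a synapsin gene on the other strand, Syn1, Syn3 and Syn2. Synapsins are proteins of synaptic vesicles. Syn1 averaged 1.25 CPM in sham and 0.988 in TAC, and Syn3 0.363 and 0.337 CPM, both far below the TIMP inside them. Syn2 averaged 6.84 CPM in sham and 5.27 in TAC, against 61.4 ± 12.7 and 46.6 ± 4.23 CPM for Timp4 (SD over the 3 libraries of a group). Timp2 overlaps Cep295nl on its own strand, which was at 0.374 and 0.550 CPM.

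In sham hearts the order of the levels per length was Timp3, Timp2, Mmp2, Mmp15, Timp4, Mmp14, Timp1, Mmp3, Mmp19 and Mmp12, by mean FPKM. Neighbours in this order did not overlap between the sham libraries except for Mmp15 with Timp4 and Mmp14 with Timp1. In the TAC libraries Timp3 and Timp2 were the highest pair in replicates 1 and 2, whereas in replicate 3 Timp1 came first and Timp3 next. Mmp3 was in place 8 of 10 in each sham library and in places 7, 4 and 4 in TAC replicates 1, 2 and 3. Mmp15 was in place 4 or 5 in sham and in places 6, 8 and 8 in TAC.

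The summed FPKM of the 4 TIMP genes exceeded that of the 6 MMP genes in every library. These sums leave out other MMP genes, such as Mmp23 (mean 6.68 FPKM in sham, 7.09 in TAC) and Mmp9 (1.37 and 5.21). The ratio of the sums therefore holds for these 10 genes only. TIMP sums were 203, 215 and 229 FPKM in sham and 212, 244 and 409 FPKM in TAC replicates 1, 2 and 3. MMP sums were 88.5, 76.6 and 88.1 FPKM in sham and 62.3, 89.9 and 87.02 FPKM in TAC. The TIMP sum of TAC replicate 3 lay far above those of the other libraries, and the MMP sum of TAC replicate 1 lay below those of the other libraries. The ratio of the TIMP to the MMP sum was 2.30, 2.81 and 2.60 in sham and 3.41, 2.71 and 4.70 in TAC, as a description with no test. The mean ratio was 1.04 higher in TAC, and 0.491 higher without TAC replicate 3. With Timp1 left out of the TIMP sum the ratio was 2.47 ± 0.277 in sham and 2.43 ± 0.611 in TAC (SD over the 3 libraries of a group).

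The make-up of both sums differed between the groups. Timp1 made up 3.14% to 5.39% of the TIMP sum in the sham libraries, and 11.6%, 8.92% and 61.8% in TAC replicates 1, 2 and 3. Mmp3 made up 4.34% to 5.34% of the MMP sum in sham, and 14.5%, 25.3% and 30.1% in TAC. Mmp2 made up 55.5% to 59.6% in sham, and 45.1%, 44.4% and 20.1% in TAC. These shares follow from the FPKM values above and were not tested.

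**Figure D3:**
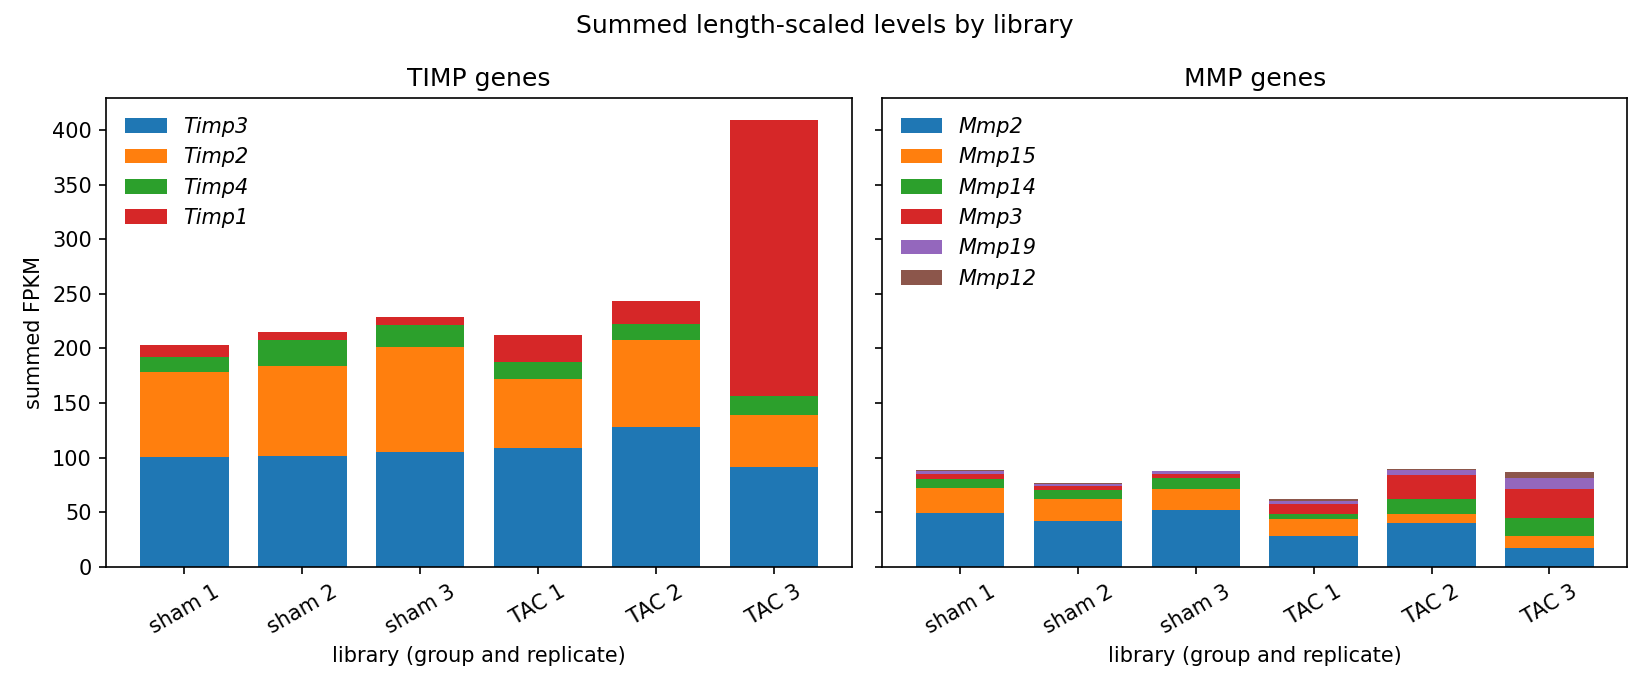
Summed FPKM (y axis, from 0) of the 4 TIMP genes (left) and the 6 MMP genes (right) in each library, stacked by gene. The TIMP sum runs from 203 to 244 FPKM in 5 libraries and reaches 409 FPKM in TAC replicate 3, and the MMP sums run from 62.3 to 89.9 FPKM.

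Among 17 further MMP genes, 9 had enough counts to be tested, and 1 was higher, 0 lower and 8 did not pass (edgeR; 3 higher and 1 lower at an unadjusted p under 0.05, 2 higher and 0 lower with DESeq2). The gene that rose was Mmp8, the collagenase of neutrophil granules. It had 4, 1 and 2 counts in sham and 17, 167 and 162 in TAC replicates 1, 2 and 3, so its log2 fold change of 5.49 (SE 1.01, adjusted p = 0.0436) rests on very few sham counts. Only the TAC libraries brought Mmp8 past the low-count filter. A gene at its sham level could be tested only if it was higher in TAC. The call of Mmp8 was lost without any given sham library and without TAC replicate 2 or 3 (adjusted p = 0.0734 to 0.235). The median of the 9 was 0.16. Over all genes, 1.12% were called higher and 0.54% lower with edgeR, and 7.28% and 4.08% with DESeq2. At an unadjusted p under 0.05 they were 16.3% and 9.26%. These shares also stand beside the counts of the lists below.

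Mmp3 and Mmp12 lie in a cluster of 10 MMP genes that spans 427 kb on chromosome 9 (7272514 to 7699585). Of these 10, 4 were tested, and 4 had 0 counts in every library, which allows up to 3 counts, or 0.110 to 0.154 CPM, for counting error only. Mmp3 and Mmp8 were called higher, Mmp8 after passing the low-count filter through TAC alone, and Mmp12 was not. Mmp13, a collagenase at the edge of the cluster, averaged 0.807 ± 0.414 CPM in sham and 0.933 ± 0.244 in TAC (SD over the 3 libraries of a group), and its log2 fold change of 0.23, with an SE of 0.47, did not pass (edgeR adjusted p = 0.783). The 4 at 0 were Mmp1b, Mmp1a, Mmp10 and Mmp20, of which Mmp1b and Mmp1a lie on either side of Mmp3. The remaining genes of the cluster, Mmp27 and Mmp7, had at most 8 counts in a library.

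**Figure D4:**
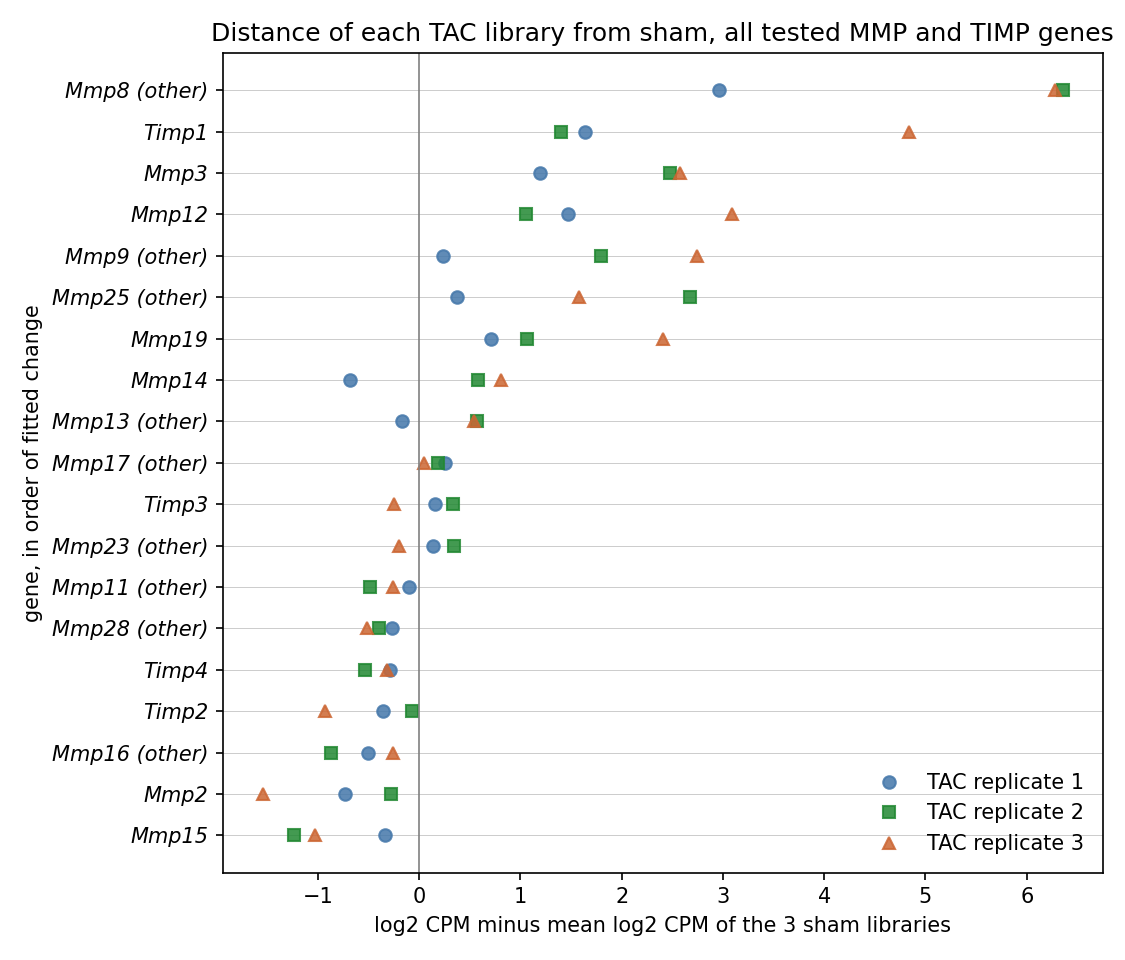
Difference of log2 CPM in each TAC library from the mean log2 CPM of the 3 sham libraries (x axis), for the 10 genes and the 9 other MMP genes tested (marked "other"), ordered by fitted change. TAC replicate 1 lies nearest to 0 for Mmp3, Mmp15, Mmp8 and Mmp9, and TAC replicate 3 lies farthest from it for Timp1, Mmp12, Mmp19 and Mmp2.

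ADAM and ADAMTS proteases are related zinc enzymes that shed cell-surface proteins or cut proteoglycans, and some are blocked by TIMP3. Of 30 listed, 25 were tested, 2 were higher, 0 lower and 23 did not pass (edgeR; 6 higher and 3 lower at an unadjusted p under 0.05, 4 higher and 0 lower with DESeq2). Adamts1, a protease of versican and aggrecan, rose from 38.8 ± 2.77 to 104 ± 34.06 CPM (SD over 3 libraries; log2 fold change 1.42 with an SE of 0.24, adjusted p = 0.0349). Adam22, which lacks protease activity, rose from 7.09 ± 1.57 to 14.7 ± 1.78 CPM (log2 fold change 1.05 with an SE of 0.19, adjusted p = 0.0436). Both calls were lost without any given sham library and without TAC replicate 2 or 3 (adjusted p = 0.0589 to 0.225). The median log2 fold change of the 25 was 0.20.

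None of the 10 tested genes, of 13 listed, for proenzyme activation and the plasmin system passed (edgeR; 2 higher and 1 lower at an unadjusted p under 0.05, 1 higher and 1 lower with DESeq2; median 0.10). The most abundant were Furin, the convertase that activates membrane-type MMPs, at 119 ± 9.89 CPM in sham and 120 ± 28.0 in TAC (log2 fold change 0.0048 with an SE of 0.18, adjusted p = 0.989), and Pcsk6, a related convertase, at a log2 fold change of -0.86 with an SE of 0.33 (adjusted p = 0.154). None of 9 cell-surface partners passed (3 higher and 1 lower at an unadjusted p under 0.05, 2 higher and 0 lower with DESeq2; median 0.25). Bsg, the MMP inducer basigin, was at -0.22 (SE 0.17, adjusted p = 0.429), and Lrp1, a receptor that clears MMPs and TIMPs, was at 0.05 (SE 0.18, adjusted p = 0.894).

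Of 12 genes of matrix substrates, 0 were higher, 1 was lower and 11 did not pass (edgeR; 1 higher and 3 lower at an unadjusted p under 0.05 and also with DESeq2; median -0.26). Lama2, the laminin chain of the muscle basement membrane, fell from 160 ± 6.02 to 101 ± 7.73 CPM (SD over 3 libraries; log2 fold change -0.66 with an SE of 0.11, adjusted p = 0.0365). Dcn, Col1a1 and Col3a1 of this list are also on the list of fibroblast markers. That call was lost without any given sham library and without TAC replicate 2 (adjusted p = 0.0943 to 0.215). Among 13 cytokines and transcription factors known to induce MMP and TIMP genes, 9 were tested and none passed (3 higher and 0 lower at an unadjusted p under 0.05, 3 higher and 0 lower with DESeq2; median 0.92). The most abundant, Ets1 and Jun, had log2 fold changes of -0.13 (SE 0.14, adjusted p = 0.557) and 0.37 (SE 0.17, adjusted p = 0.220).

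Markers of several cell types that make these enzymes also differed between the groups, and their part in the results was not tested. In whole-tissue RNA, fewer cells of a type and less RNA per cell cannot be told apart. Shares over all genes were 1.12% higher and 0.54% lower (edgeR), 16.3% and 9.26% (unadjusted p under 0.05), and 7.28% and 4.08% (DESeq2). Of 10 macrophage and monocyte markers 3 were higher and 0 lower (edgeR; 9 higher and 0 lower at an unadjusted p under 0.05, 8 higher and 0 lower with DESeq2), and their summed level was 589 to 699 CPM in sham and 818 to 1237 CPM in TAC. Of 8 tested neutrophil markers, 3 were higher and 0 lower (8 higher and 0 lower at an unadjusted p under 0.05 and also with DESeq2), with Mmp8 and Mmp9 on that list of 10. A marker with few sham counts can pass the low-count filter only through TAC, as Mmp8 did (4, 1 and 2 counts in sham). Such a marker could hardly be called lower, here and in the lists below. The counts of called markers are therefore description only where sham counts are few. The sum of the 10 neutrophil markers was 6.29 to 13.4 CPM in sham and 29.8, 157 and 161 CPM in TAC replicates 1, 2 and 3. Ly6g, a defining neutrophil marker, was at 0 in sham and at 0.0851 to 0.304 CPM in TAC. A sham library at 0 allows up to 3 counts, or 0.110 to 0.154 CPM, for counting error only. The lowest TAC value of Ly6g is therefore not told apart from sham. None of 10 fibroblast markers passed (edgeR; 0 higher and 2 lower at an unadjusted p under 0.05, 0 higher and 1 lower with DESeq2), and their sum was 4743 to 5371 CPM in sham and 2834 to 3676 CPM in TAC. None of 8 markers of activated fibroblasts passed (3 higher and 2 lower at an unadjusted p under 0.05, 2 higher and 2 lower with DESeq2), at 495 to 656 and 397 to 501 CPM. The median log2 fold change of these 8 was 0.33, with 5 above 0, while the sums weigh abundant markers most. Acta2 of this list is also on the list of smooth muscle and pericyte markers. No marker of the macrophage or fibroblast lists was at 0 in all libraries.

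For endothelial cells, 0 of 8 markers were higher and 1 was lower (edgeR; 1 higher and 2 lower at an unadjusted p under 0.05 and also with DESeq2), with sums of 1853 to 1975 CPM in sham and 1580 to 1736 CPM in TAC. Smooth muscle and pericyte markers had 0 of 8 passing (edgeR; 0 higher and 5 lower at an unadjusted p under 0.05, 0 higher and 3 lower with DESeq2), with sums of 1367 to 1615 and 1018 to 1331 CPM. None of 8 cardiomyocyte markers passed (0 higher and 2 lower at an unadjusted p under 0.05, 0 higher and 2 lower with DESeq2). Of 6 tested lymphocyte markers none passed (5 higher and 0 lower at an unadjusted p under 0.05, 2 higher and 0 lower with DESeq2), with sums of 6.06 to 7.76 CPM in sham and 11.5 to 33.7 CPM in TAC. Red cell and platelet markers had 3 of 7 higher and 0 lower (edgeR; 7 higher and 0 lower at an unadjusted p under 0.05 and also with DESeq2), with sums of 663 to 1128 and 1397 to 2461 CPM.

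The genes most like Mmp3 over the 6 libraries, by Pearson's r of log2 CPM among 8433 candidates with a mean of at least 10 CPM, were Rrbp1, Gda and Pirb. Rrbp1 encodes a ribosome-binding protein of the endoplasmic reticulum (r = 0.998). It stood at 67.05 to 68.6 CPM in sham and at 86.3, 116 and 115 CPM in TAC replicates 1, 2 and 3. Gda encodes guanine deaminase (r = 0.997), and Pirb an inhibitory receptor of myeloid cells (r = 0.996). Both shared the order of Mmp3 between the groups, with TAC replicate 1 between sham and the other TAC libraries. These r values cover 6 libraries that share the same group difference, and the genes were picked for them, so they are given without a p.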

How the data were processed

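Per the file headers, the deposited table gives an estimated count and an FPKM value per gene and library, for 3 sham and 3 TAC hearts. The submitters' processing notes list Bowtie2 2.2.8, HISAT2, StringTie 1.3.1 and DESeq2 on GRCm38; which of them made which column was not given in the sources used here. FPKM, as the authors deposited it, is scaled by gene length and library total. Symbols and positions came from a GRCm38 annotation (22255 of 22298 identifiers matched).

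Estimated counts were rounded to whole numbers. The quasi-likelihood test of edgeR (version 4.0.16, run under R 4.3.3) compared 13708 genes that passed filterByExpr at a minimum count of 10, two-sided, with TMM factors, Benjamini-Hochberg adjustment and a threshold of 0.05. The SE is the log2 fold change divided by the square root of F, an approximation. The procedure was tested on simulated counts in which no library departed from its group across many genes. That test therefore does not cover the differences between TAC libraries seen here. Alternatives used DESeq2 1.42.0, limma 3.58.1 (voom, and log2 of FPKM plus 1 or 0.1), other factors, filters and thresholds, a block for the replicate number, and fits without 1 library each. The genes and lists were chosen with earlier results of these data known. From each pathway list up to 6 called genes are named or, with none, the 2 most abundant, and for each called gene of the set the 3 most alike. Genes at the edge or at 0 in the chromosome 9 cluster, overlapping genes and Ly6g were named after their values were seen.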

Additional observations from a re-analysis of the deposited data

How the results depend on the processing

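The log2 fold changes of the 10 genes kept their sign in every alternative tried, except that of Timp3 without TAC replicate 2 (-0.058, the lowest value without 1 library, against a highest of 0.24). Of the values per gene and alternative, 141 kept their sign and side of the threshold. Another 18 gained the call, and 8, all of Mmp3, lost it. The 18 include Mmp12, Mmp15, Mmp19 and Timp1 at an adjusted p under 0.10, where only the threshold was changed. Mmp2, Mmp3, Mmp14, Timp2, Timp3 and Timp4 at that threshold are among the 141. Their fold changes there are those of the main fit, so the sign could not differ. Mmp12 had too few counts for a minimum count of 100, and DESeq2 gave no p-value, unadjusted or adjusted, for Timp1. Against 1 higher and 0 lower genes of the set, DESeq2's Wald test gave 3 and 2, limma-voom 0 and 0, limma-voom with library weights 4 and 1, limma-trend on log2 of FPKM plus 1 0 and 0, and an adjusted p under 0.10 4 and 1. Without 1 library, the counts ranged from 0 to 5 higher and from 0 to 1 lower. Over all genes, against 153 higher and 74 lower, DESeq2's Wald test called 1063 and 595, limma-voom 96 higher, library weights 1379 and 715, FPKM plus 1 59 higher, FPKM plus 0.1 64 higher, and an adjusted p under 0.10 1131 and 479. Leaving out 1 library gave 4 to 1837 higher and 8 to 1392 lower genes. The cause was not tested. The difference in the TIMP to MMP ratio ranged from 0.491 (without TAC replicate 3) to 1.48.

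With the replicate number as a block, 48 genes were higher and 26 lower, and 0 of the set were higher (Mmp3 adjusted p = 0.0640). The deviations of same-numbered libraries correlated at 0.01, -0.11 and -0.02 for numbers 1, 2 and 3. The labels link these libraries by number only, and a shared batch was not tested. Depth limits Mmp12, with 19 to 24 counts in sham, and Mmp8, with 1 to 4.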
